A study of Mus musculus with 6 samples.

Results

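The Notch receptors (Notch1, Notch2, Notch3 and Notch4), 3 of their ligands (Jag1, Jag2 and Dll1) and 3 of their target genes (Hes1, Hey1 and Heyl) were examined in pRb-deficient and pRb-expressing mouse osteoblasts. They were taken as every probe set whose only annotated gene symbol is one of these names, which gave 20 of 45037 probe sets and 10 of 18193 genes. Each probe set reads a transcript through several short oligonucleotides and gives 1 signal.

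The pRb-deficient cells carry the genotype label Rb Knockout and the pRb-expressing cells the label Wild type, and 3 cultures of each were hybridized to 1 Affymetrix Mouse Genome 430 array apiece. Both are osteoblasts from calvariae, the roof bones of the skull, of embryonic day 18.5 mice, and both were 3T3-immortalized, that is, passaged every 3 days until they grew without limit (MC3T3 cells). The parent mice carried the flox19-RB1 allele in a C57BL/6 background together with 2.3- or 3.6-Col1a1-Cre transgenes, in which a collagen promoter active in osteoblasts drives the recombinase. The labels do not say which transgene either line carried or whether the Wild type cells held Cre. They call the cultures biological replicates, but nothing says that these came from separate animals or lines, so the p-values speak only of how these cultures varied, possibly for technical reasons, and line of origin and pRb status cannot be told apart. Rb1, the gene of pRb, had signals of 143.1, 127.1 and 123.5 in pRb-deficient cultures, against 1123.7, 1118.6 and 1105.9 in pRb-expressing cultures, and where its probes lie relative to the deleted exon is not given in the sources used here.

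Notch receptors are single-pass membrane proteins that are bound by Jagged or Delta-like ligands on a neighbouring cell. Binding lets a metalloprotease and then the gamma-secretase complex cut the receptor, and the freed intracellular part enters the nucleus, where it joins the DNA-binding protein RBPJ and a Mastermind coactivator to switch on HES and HEY genes, which encode transcriptional repressors. In bone the pathway is known for holding precursor cells back from osteoblast differentiation. pRb, for its part, is a nuclear protein that binds E2F transcription factors.

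The signals of Notch1, Notch3, Jag1 and Hes1 were lower in pRb-deficient osteoblasts, and no member gene was higher. Taking the brightest probe set of each gene, 4 of the 10 genes passed the threshold of an adjusted p of 0.05 in limma, all 4 lower, and 6 did not pass it. Expression differed broadly between the lines, since 41.9% of all genes tested passed, 23.4% being lower and 18.5% higher in pRb-deficient cultures. The median log2 fold change, pRb-deficient over pRb-expressing throughout, was −0.46 over the 10 genes and −0.09 over all genes. Of the 20 probe sets, 19 were above a floor of 32 on at least 1 array and were tested, and 8 of these were lower, where 35.0% of all probe sets tested passed in either direction, 18.8% lower and 16.2% higher. The 8 were 4 of the 8 receptor probe sets tested, 3 of the 6 ligand probe sets and 1 of the 5 target probe sets. In 6 of the 19 the fall was at least 2-fold, beside 6.70% of all probe sets tested. These 6 read only 3 genes, Notch1, Jag1 and Hes1, so they are not independent readings, and no share of genes was computed for this cutoff. The groups did not overlap in 11 of the 20 probe sets, 10 of them lower, beside 43.0% of all probe sets in either direction. The share for lower alone was not computed, and the 10 include more than 1 probe set each of Notch1, Notch3 and Jag1. In such bulk samples fewer cells that express a gene and less RNA per cell cannot be told apart.

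**Figure D1:**
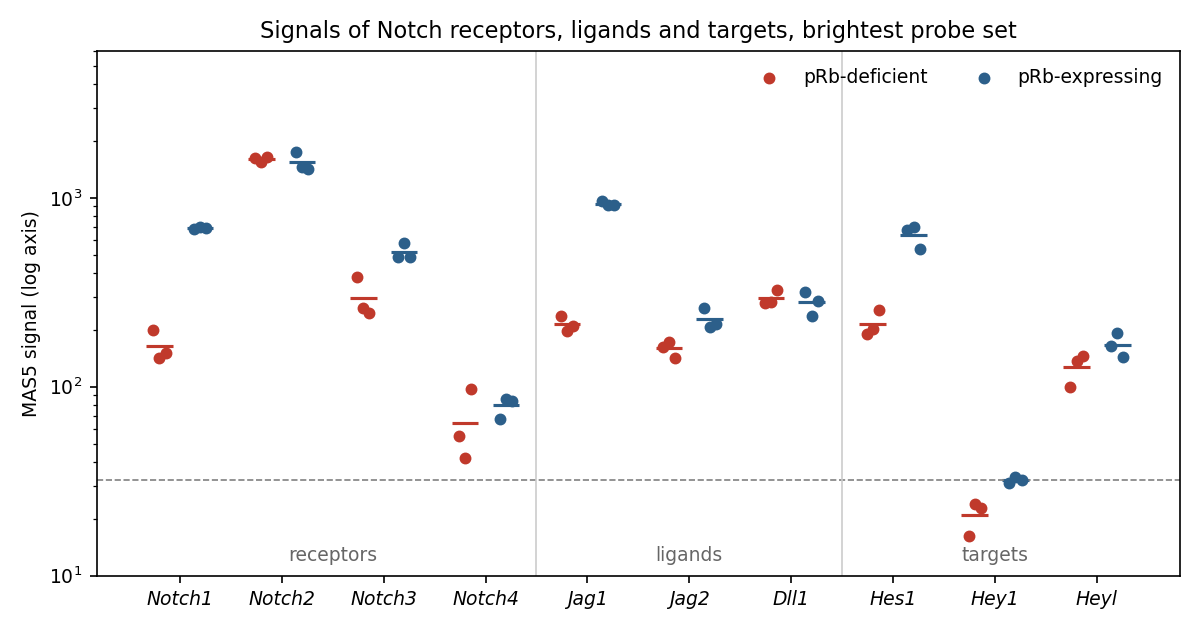
MAS5 signals (log axis) of the brightest probe set of each of the 10 genes in 3 pRb-deficient and 3 pRb-expressing cultures, with points for cultures, bars for means and a dashed line at the floor of 32. Notch1, Jag1 and Hes1 have pRb-deficient points far below the pRb-expressing ones, while those of Notch2 and Dll1 overlap, and levels of different genes are not comparable on this scale.

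To show the DNA from which these transcripts start, the 250 bases before the annotated start were taken from RefSeq promoters of GRCm38.p6 for the 3 lower genes that have an entry, Notch1 (chr2:26503823-26504072, minus strand), Jag1 (chr2:137116521-137116770, minus strand) and Notch3 (chr17:32166891-32167140, minus strand), and for Notch2 (chr3:98013288-98013537, plus strand), a receptor that was well above the floor on all arrays and did not pass the test. Entries were found for 7 of the 10 genes and for none of Hes1, Hey1 and Heyl. Each sequence is printed 5′ to 3′ on its gene's strand, with capitals for matches to 4 searched motifs.
Notch1: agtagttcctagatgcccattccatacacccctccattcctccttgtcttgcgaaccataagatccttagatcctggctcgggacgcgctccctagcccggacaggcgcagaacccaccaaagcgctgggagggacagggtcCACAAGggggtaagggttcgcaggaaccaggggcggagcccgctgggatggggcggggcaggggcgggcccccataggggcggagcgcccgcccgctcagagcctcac
Jag1: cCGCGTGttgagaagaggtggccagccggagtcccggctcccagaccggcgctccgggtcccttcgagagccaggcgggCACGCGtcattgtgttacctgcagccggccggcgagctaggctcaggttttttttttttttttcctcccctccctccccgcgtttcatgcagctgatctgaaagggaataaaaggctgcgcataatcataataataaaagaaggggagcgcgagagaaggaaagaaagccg
Notch3: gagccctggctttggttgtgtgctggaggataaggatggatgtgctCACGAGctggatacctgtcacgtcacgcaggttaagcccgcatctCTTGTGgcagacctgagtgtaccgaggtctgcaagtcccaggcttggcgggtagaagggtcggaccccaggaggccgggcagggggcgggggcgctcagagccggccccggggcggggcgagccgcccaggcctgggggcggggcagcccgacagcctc
Notch2: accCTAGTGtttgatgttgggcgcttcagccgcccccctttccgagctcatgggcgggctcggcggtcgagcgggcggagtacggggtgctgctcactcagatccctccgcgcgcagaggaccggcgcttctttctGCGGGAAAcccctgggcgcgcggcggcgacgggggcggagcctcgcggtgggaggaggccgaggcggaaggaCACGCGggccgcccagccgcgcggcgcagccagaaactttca
The motifs, searched on both strands, were the RBPJ core TGGGAA, an E2F site (TTTCCCGC, TTTGGCGC, TTTCGCGC or TTTGCCGC), the N-box CACNAG and the class C E-box CACGCG, the last 2 being sites that HES and HEY repressors are known to bind. None of the motifs overlaps another in these windows. The Notch1 window holds 1 N-box, read CACAAG, at 108 to 103 bases before the start, and the Notch3 window holds 2, at 204 to 199 and, on the other strand, at 159 to 154. The Jag1 window holds the class C E-box 2 times, at 249 to 244 on the other strand and at 171 to 166. The Notch2 window holds an N-box on the other strand at 247 to 242, an E2F match on the other strand, read GCGGGAAA, at 114 to 107, and a class C E-box at 42 to 37. The RBPJ core was in none of the 8 member promoters, which include 2 of Dll1. Of all 32851 promoters of the table, 21.6% hold the RBPJ core, 1.86% an E2F match, 36.7% an N-box and 7.62% a class C E-box. These letters are a description of the windows, not a measurement of binding. The 4 windows are rich in G and C (66.0% in Notch1, 57.2% in Jag1, 68.8% in Notch3 and 72.0% in Notch2, where the median of all promoters was 52.4%) and hold 16, 20, 17 and 34 CG dinucleotides, where the median was 6.

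Among the receptors, Notch1, which acts in many lineages including bone, had the largest difference. Its brightest probe set had signals of 198.6, 141.1 and 151.7 in pRb-deficient cultures, against 684.5, 699.8 and 695.6 in pRb-expressing cultures. All 3 pRb-deficient cultures were far below all 3 pRb-expressing cultures, whose signals were nearly equal. The means were 164 ± 30.6 in pRb-deficient and 693 ± 7.91 in pRb-expressing cultures (SD, n = 3 each), a 4.28-fold fall (log2 fold change −2.10, SE 0.15, 95% interval −2.46 to −1.74, adjusted p = 8.65e-05 from limma). The other probe set of Notch1 gave 137.3, 137.2 and 142.8 in pRb-deficient cultures, against 562.2, 520.8 and 442.4 in pRb-expressing cultures, a fall of 3.64-fold (adjusted p = 9.55e-05 from limma). Both probe sets thus fell with no overlap between the groups.

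Notch2, a receptor that also acts in bone-forming and bone-resorbing cells, did not pass the test with either probe set. The brighter one had signals of 1618.7, 1537.8 and 1633.7 in pRb-deficient cultures, against 1755.7, 1458.3 and 1424.8 in pRb-expressing cultures. The pRb-deficient signals lay inside the range of the pRb-expressing ones. The log2 fold change was 0.05, with a 95% interval of −0.17 to 0.28 (adjusted p = 0.716 from limma), so a change as large as that of Notch1 lies outside it. The dimmer probe set gave 276.3, 233.6 and 279.4 in pRb-deficient cultures, against 211.4, 245.1 and 203.0 in pRb-expressing cultures, and the groups overlapped (log2 fold change 0.26, interval −0.10 to 0.61, adjusted p = 0.238).

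Notch3, a receptor best known from the mural cells of blood vessels, was lower by less than Notch1. Its brighter probe set had signals of 381.6, 260.4 and 244.8 in pRb-deficient cultures, against 488.5, 577.0 and 485.4 in pRb-expressing cultures. The groups did not overlap, although the highest pRb-deficient culture stood apart from the other 2 and nearer to the pRb-expressing ones. The fall was 1.78-fold (log2 fold change −0.83, SE 0.19, adjusted p = 0.013 from limma), and a second probe set fell 1.62-fold (adjusted p = 0.0336). The call did not hold without pRb-expressing replicate 1 (adjusted p = 0.0567), 2 (0.0792) or 3 (0.0514), without pRb-deficient replicate 2 (0.068), or once the median of chromosome 17 was removed (log2 fold change −0.57, adjusted p = 0.0551).

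Notch4, a receptor typical of endothelium, was close to the floor. The brightest of its 3 probe sets had signals of 54.8, 42.2 and 96.7 in pRb-deficient cultures, against 67.8, 86.5 and 84.4 in pRb-expressing cultures, and the groups overlapped (adjusted p = 0.422 from limma). The second gave 34.1, 33.1 and 34.4 in pRb-deficient cultures, against 7.1, 5.9 and 27.2 in pRb-expressing cultures. Here the pRb-deficient signals were the higher ones, but they lay just above the floor and the probe set did not pass (adjusted p = 0.564). The third was under the floor on all 6 arrays and was not tested.

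Among the ligands, Jag1, the Jagged ligand that also carries patterning signals in the skeleton, was lower with all 3 of its probe sets. The brightest had signals of 237.7, 196.7 and 209.5 in pRb-deficient cultures, against 960.1, 916.5 and 918.0 in pRb-expressing cultures. The groups lay far apart, with little spread inside either. The means were 215 ± 21.0 in pRb-deficient and 932 ± 24.8 in pRb-expressing cultures (SD, n = 3 each), a 4.35-fold fall (log2 fold change −2.12, SE 0.11, 95% interval −2.37 to −1.87, adjusted p = 2.04e-05 from limma). The second probe set gave 108.8, 90.9 and 105.9 in pRb-deficient cultures, against 192.7, 203.6 and 217.3 in pRb-expressing cultures. The third gave 42.5, 65.9 and 56.3 in pRb-deficient cultures, against 149.8, 215.7 and 228.3 in pRb-expressing cultures. Neither overlapped between the groups, and the falls were 2.01-fold (adjusted p = 0.00346) and 3.60-fold (adjusted p = 0.0016), so the size of the difference depends on the probe set while its direction does not.

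Jag2, a second Jagged ligand, had signals of 162.6, 172.8 and 142.6 in pRb-deficient cultures, against 261.3, 208.1 and 215.7 in pRb-expressing cultures, for its brighter probe set. The pRb-deficient signals were all below the pRb-expressing ones, but the gene missed the threshold (log2 fold change −0.52, SE 0.17, 95% interval −0.92 to −0.12, adjusted p = 0.052 from limma). It passed in 7 of 19 alternative limma settings. The other Jag2 probe set lay around the floor on all arrays and overlapped between the groups.

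Dll1, the Delta-like ligand, gave 277.0, 281.8 and 325.5 in pRb-deficient cultures, against 316.2, 236.1 and 285.7 in pRb-expressing cultures. The groups overlapped (log2 fold change 0.08, 95% interval −0.28 to 0.45, adjusted p = 0.719 from limma). The 3 ligands therefore ranged from a clear fall in Jag1 to no detectable difference in Dll1.

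Of the targets, Hes1, a repressor and the best known readout of Notch activity in many cells, was lower. Its signals were 190.4, 201.9 and 255.6 in pRb-deficient cultures, against 671.5, 697.8 and 536.8 in pRb-expressing cultures. Even the highest pRb-deficient culture was below the lowest pRb-expressing one by more than the spread inside either group. The means were 216 ± 34.8 in pRb-deficient and 635 ± 86.4 in pRb-expressing cultures (SD, n = 3 each), a 2.95-fold fall (log2 fold change −1.56, SE 0.16, 95% interval −1.95 to −1.17, adjusted p = 0.000431 from limma). Hes1 is read by 1 probe set on this array.

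The 2 HEY genes did not pass. Hey1 had signals of 16.2, 24.0 and 22.7 in pRb-deficient cultures, against 30.9, 33.1 and 31.9 in pRb-expressing cultures. The pRb-deficient signals were the lower ones, but 5 of the 6 arrays were at or below the floor of 32, so no fold is given. Heyl had signals of 99.1, 137.3 and 145.7 in pRb-deficient cultures, against 164.0, 192.0 and 144.2 in pRb-expressing cultures, for its brightest probe set. The groups overlapped by 1 culture of each (log2 fold change −0.40, 95% interval −0.92 to 0.13, adjusted p = 0.221 from limma), and the other 2 Heyl probe sets were at or below the floor on most arrays.

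**Figure D2:**
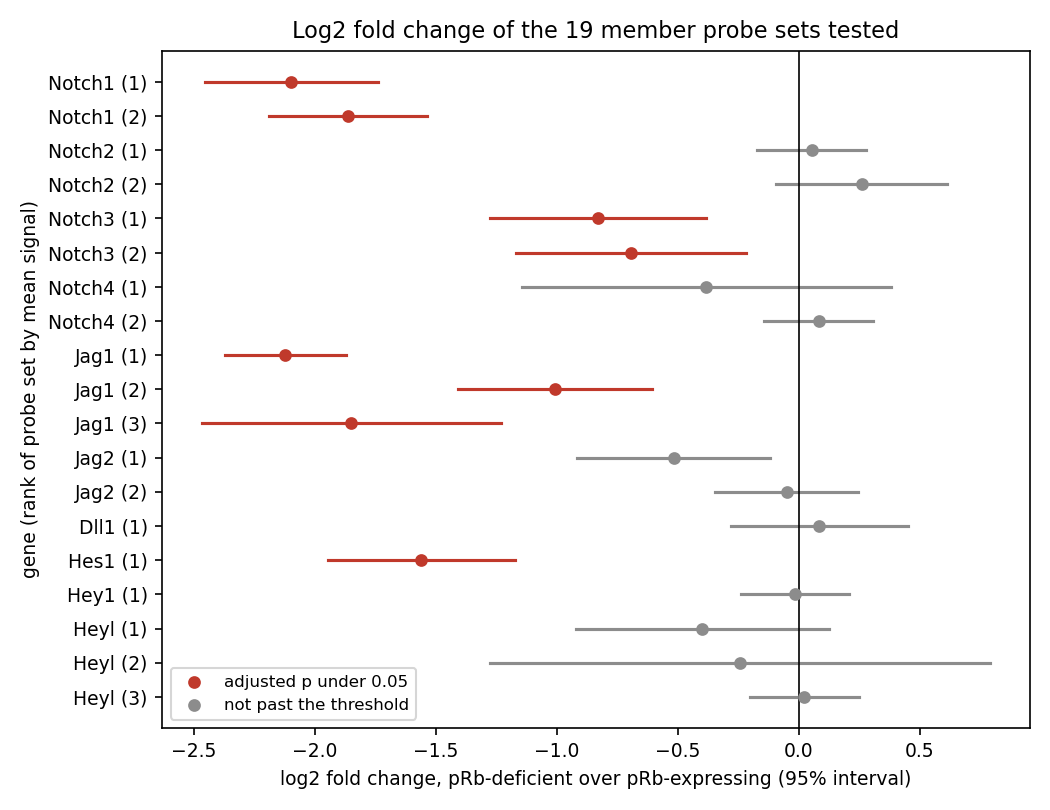
Log2 fold change, pRb-deficient over pRb-expressing, of the 19 member probe sets tested (points, with limma's 95% interval as bars), ranked within each gene by mean signal. The 8 probe sets past the threshold, all left of 0, belong to Notch1, Notch3, Jag1 and Hes1.

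Chromosomes differed in their median log2 fold change, so each member was set beside its own. Over genes whose mean signal reached 200, the median was −0.33 on chromosome 2, which holds Notch1 and Jag1, −0.43 on chromosome 16, which holds Hes1, and −0.26 on chromosome 17, which holds Notch3, Notch4 and Dll1. It was above 0 on chromosomes 3 (0.11), 4 (0.06) and 12 (0.27), which hold Notch2 and Hey1, Heyl, and Jag2. Relative to these medians, Notch1 was at −1.77, Jag1 at −1.80 and Hes1 at −1.13 on the log2 scale, and all 3 still passed with the medians removed (adjusted p = 0.000198, 4.03e-05 and 0.002 from limma). Jag2 was at −0.79 and passed under this setting (adjusted p = 0.0137). Of 762 other such genes on chromosome 2, 17 (2.23%) had a lower value than Notch1 and 16 (2.10%) than Jag1. Of 311 on chromosome 16, 12 (3.86%) were below Hes1, and of 467 on chromosome 17, 58 (12.4%) were below Notch3.

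The nearest genes differed from member to member. The 10 nearest measured genes of Notch1 had a median of −0.23 and ranged from −0.82 to 0.85, with 3 lower and 1 higher past the threshold. The higher one, Egfl7, encodes a secreted protein of endothelium. The 10 neighbours of Jag1 had a median of −0.43 and ranged from −1.88 to 0.01, and 6 of them were lower. Among the 6 were Plcb1 (log2 fold change −1.88, adjusted p = 0.00049 from limma) and Plcb4 (−1.52, adjusted p = 3.87e-05), which encode phospholipases, and Macrod2 (−1.04, adjusted p = 0.000511). Jag1 thus lay among genes that were mostly lower, but these 10 span 7.61 megabases and their median is near that of chromosome 2 (−0.33). Those of Hes1 had a median of 0.04 and ranged from −0.43 to 5.58, with 1 lower and 2 higher past the threshold. The part of chromosome-wide differences in the values of the members was not tested beyond these comparisons.

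**Figure D3:**
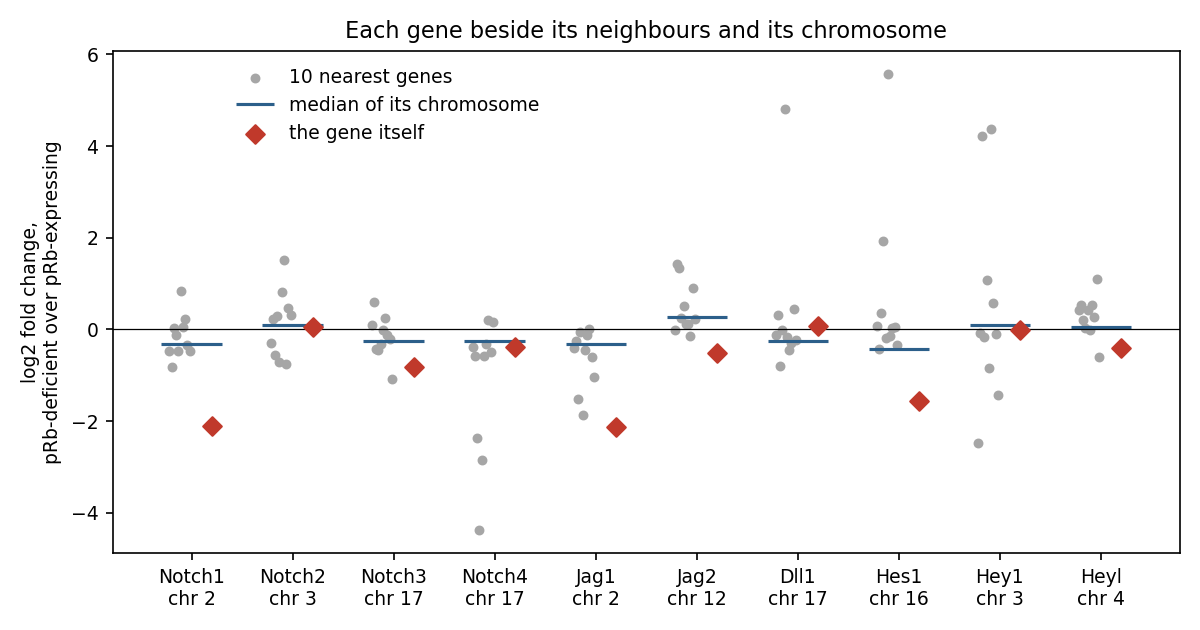
Log2 fold change, pRb-deficient over pRb-expressing, of each of the 10 genes (diamonds), of its 10 neighbours, in equal number on each side (grey points), and of its chromosome's median (blue lines). Notch1, Jag1 and Hes1 lie below all of their neighbours shown, and Jag1 has several neighbours that are low as well.

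The rest of the pathway was read from 8 lists of 72 genes, 67 of which were measured. Of these, 16 (23.9%) were higher, 19 (28.4%) lower and 32 did not pass, beside 18.5% higher and 23.4% lower of all genes, and the median log2 fold change was −0.03. With chromosome medians removed, 12 were higher and 13 lower, with 15 of the calls lost and 5 gained. The pathway as a whole therefore showed no common direction, and the description below goes by role.

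The genes that modify the receptor before it reaches the surface were mostly lower. Of 6 genes for receptor glycosylation and furin cleavage, 5 were lower, and the median was −0.91. Lfng encodes lunatic fringe, the glycosyltransferase that alters the response of Notch to Jagged and Delta-like ligands, and had signals of 48.3, 82.4 and 87.3 in pRb-deficient cultures, against 301.8, 430.1 and 302.0 in pRb-expressing cultures. The groups lay well apart, a 4.83-fold fall (log2 fold change −2.27, SE 0.29, adjusted p = 0.000963 from limma), and a dimmer probe set of Lfng, under the floor in all pRb-deficient cultures, did not pass (adjusted p = 0.114). Poglut1 encodes the enzyme that places O-glucose on Notch and averaged 658 ± 43.6 in pRb-deficient and 1780 ± 105 in pRb-expressing cultures (SD, n = 3 each), a 2.71-fold fall (adjusted p = 3.69e-05). Pofut1, the O-fucosyltransferase (log2 fold change −0.93, adjusted p = 0.0115), Rfng, a second fringe (−0.89, adjusted p = 0.00668), and Furin, the protease that cleaves the receptor precursor (−0.39, adjusted p = 0.0421), were lower too, but these 3 calls were lost with chromosome medians removed (adjusted p = 0.0609, 0.15 and 0.716). Mfng, another fringe, had a log2 fold change of −0.41 and did not pass (adjusted p = 0.116), while it did with chromosome medians removed (adjusted p = 0.0129).

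The proteases that cut the receptor after ligand binding were split. Of 7 metalloprotease and gamma-secretase genes, 3 were higher, 1 was lower and 3 did not pass. Adam10, the protease that makes the first cut on ligand-bound Notch, had signals of 6560.7, 6982.4 and 7523.4 in pRb-deficient cultures, against 6235.4, 5573.9 and 6013.8 in pRb-expressing cultures. The groups did not overlap, yet the difference was small and did not pass (log2 fold change 0.24, SE 0.08, adjusted p = 0.0535 from limma). A dimmer Adam10 probe set did pass, also higher (log2 fold change 0.32, adjusted p = 0.0211), while the rest did not (adjusted p = 0.0761 and 0.111). With chromosome medians removed, the brightest Adam10 probe set was at −0.04 (adjusted p = 0.751 from limma). Aph1b, a gamma-secretase subunit, was 1.82-fold higher (adjusted p = 0.000626). Adam17, a related metalloprotease, was 1.47-fold higher (adjusted p = 0.00431) and Psen2, a catalytic subunit of gamma-secretase, 1.55-fold lower (adjusted p = 0.0123), and both calls were lost with chromosome medians removed (adjusted p = 0.0655 and 0.508).

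On the side of the ligands, 7 of 8 other ligand genes did not pass. The exception was Mfap5, which encodes a microfibril glycoprotein of the matrix that can bind Notch1, with 667 ± 346 in pRb-deficient and 7000.0 ± 332 in pRb-expressing cultures (SD, n = 3 each), an 11.7-fold fall on geometric means (adjusted p = 0.000549 from limma). Of 6 genes that activate ligands by ubiquitin ligation or endocytosis, Neurl1a was 2.40-fold higher (adjusted p = 0.00107), Mib2 was 1.92-fold higher (adjusted p = 0.00759) and Epn2 was 1.86-fold lower (adjusted p = 0.00217). Of the 5 other Neurl1a probe sets, 1 passed, also higher (adjusted p = 0.0228 from limma). The brightest of these 5 was level (log2 fold change −0.03, adjusted p = 0.939), and the dimmest was lower without passing (−0.54, adjusted p = 0.0566). The call of Epn2 was lost with chromosome medians removed (adjusted p = 0.0714).

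The nuclear complex through which Notch acts had its 2 largest changes in opposite directions. Rbpj encodes the DNA-binding protein of the pathway, which represses targets without Notch and activates them with it. Its signals were 5510.4, 5073.9 and 6154.5 in pRb-deficient cultures, against 1864.6, 1790.9 and 2018.6 in pRb-expressing cultures. The pRb-deficient cultures were the higher ones by a wide margin, a 2.94-fold rise (log2 fold change 1.56, SE 0.09, adjusted p = 3.65e-05 from limma), and the other 2 Rbpj probe sets were higher as well. Maml1, the Mastermind coactivator, had signals of 1019.8, 1044.2 and 891.9 in pRb-deficient cultures, against 2132.1, 2031.6 and 2077.8 in pRb-expressing cultures. It was 2.12-fold lower (log2 fold change −1.08, SE 0.08, adjusted p = 9.72e-05), as was a second probe set, while one more lay around the floor and did not pass. With chromosome medians removed, Maml1 was at −0.56 (adjusted p = 0.002 from limma) and Rbpj at 1.29 (adjusted p = 9.16e-05), and both calls held. Over the 7 genes of the list 4 were higher and 2 lower, among them Snw1, a cofactor of the complex, 1.28-fold higher (adjusted p = 0.00703), a call lost with chromosome medians removed (adjusted p = 0.391). The other 2 Snw1 probe sets did not pass (adjusted p = 0.242 and 0.178 from limma).

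Of 12 corepressor genes, 4 were higher, 3 lower and 5 did not pass. Tle4, a Groucho corepressor that HES proteins recruit, had signals of 357.7, 439.5 and 416.3 in pRb-deficient cultures, against 86.4, 77.6 and 91.4 in pRb-expressing cultures. All pRb-deficient cultures were far above the pRb-expressing ones, a 4.74-fold rise (log2 fold change 2.25, SE 0.16, adjusted p = 8.67e-05 from limma). The Groucho family moved both ways, since Tle1 was 1.66-fold higher (adjusted p = 0.000443) and Tle2 2.44-fold lower (adjusted p = 0.00185), calls that held with chromosome medians removed (adjusted p = 0.000825 and 0.00153). Ctbp2, another corepressor, was 1.46-fold lower with its brightest probe set (adjusted p = 0.00119), a call lost with chromosome medians removed (adjusted p = 0.0611). Its other probe set averaged 1406 in pRb-deficient and 1355 in pRb-expressing cultures and did not pass (log2 fold change 0.05, adjusted p = 0.555 from limma).

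Of 13 genes for turnover and inhibition of Notch, 3 were higher, 4 lower and 6 did not pass. The Deltex family of ubiquitin ligases moved both ways. Dtx3l averaged 195 ± 18.0 in pRb-deficient and 850 ± 28.4 in pRb-expressing cultures, a 4.38-fold fall (adjusted p = 2.33e-05 from limma). Dtx4 averaged 757 ± 112 in pRb-deficient and 297 ± 44.0 in pRb-expressing cultures, a 2.55-fold rise (SD, n = 3 each, adjusted p = 0.000707), and Dtx2 was 1.98-fold higher (adjusted p = 0.000892).

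Of 8 further HES and HEY related genes, 6 did not pass. The exceptions were Bhlhe40, a repressor of the same protein superfamily that answers to many stimuli, 1.78-fold lower (adjusted p = 0.000209 from limma), and Hes6, which is known to oppose Hes1, 1.84-fold lower (adjusted p = 0.00114), while a second probe set of Hes6 did not pass (adjusted p = 0.0935). Several of the others were close to the floor of 32, with means of 26.9 in pRb-deficient and 29.5 in pRb-expressing cultures for Hes2, 16.4 in pRb-deficient and 26.6 in pRb-expressing cultures for Hes5, and 39.0 in pRb-deficient and 5.43 in pRb-expressing cultures for Hey2, where little can be read from a difference.

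**Figure D4:**
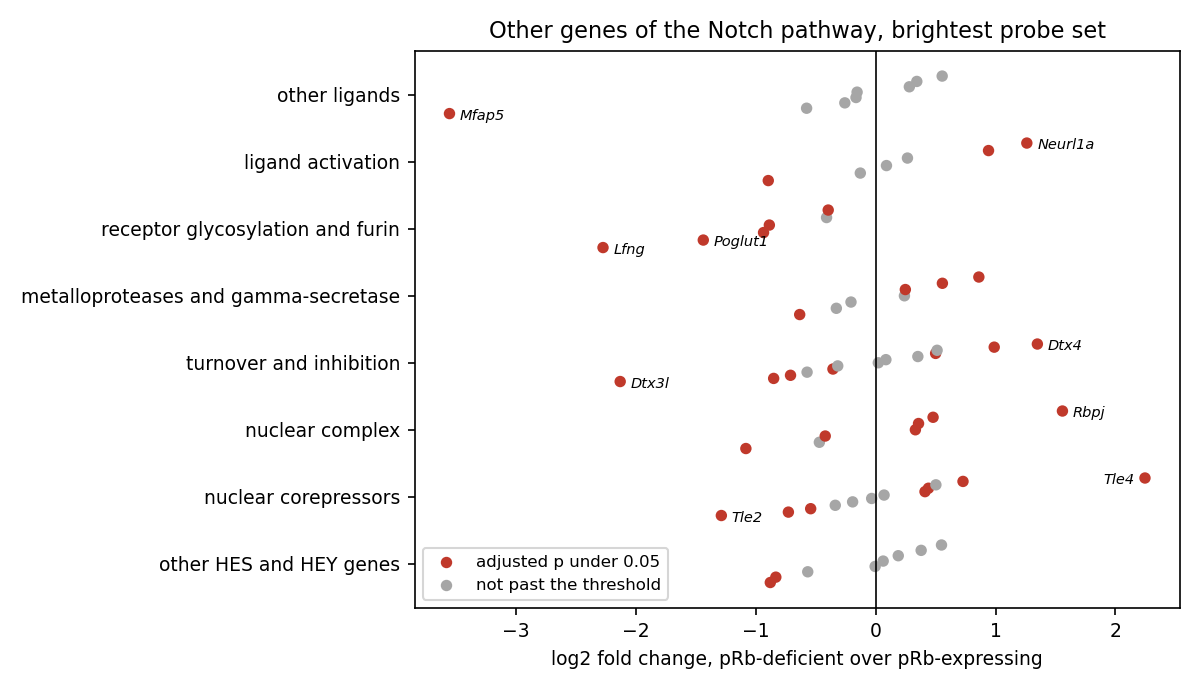
Log2 fold change, pRb-deficient over pRb-expressing, of the 67 other pathway genes measured, brightest probe set, by role, with red points past the threshold and names where the value is at least 1.2 from 0. The receptor glycosylation list lies to the left of 0, and the other lists spread to both sides.

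**Figure D5:**
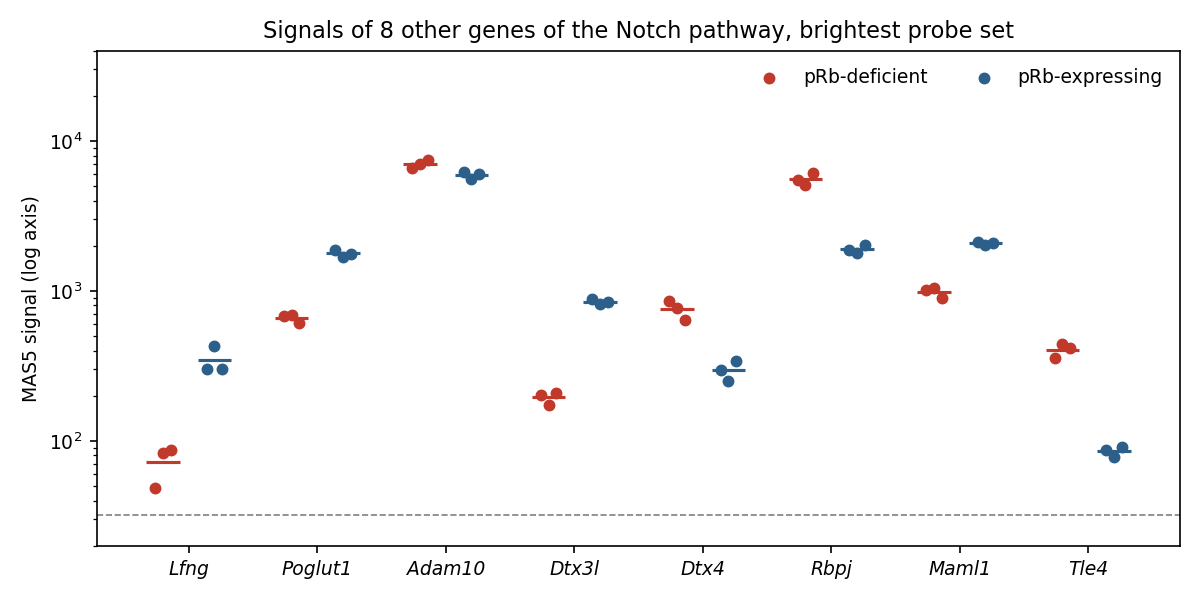
MAS5 signals (log axis) of 8 other pathway genes in 3 pRb-deficient and 3 pRb-expressing cultures, with points for cultures, bars for means and a dashed line at the floor of 32. Rbpj, Dtx4 and Tle4 are higher in pRb-deficient cultures, Lfng, Poglut1, Dtx3l and Maml1 lower, and the groups of Adam10 lie close together.

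The share of cell type markers that passed differed between the lists, beside 41.9% of all genes. Of 7 osteoblast markers measured, of 11 listed, 6 were lower (Sp7, Ibsp, Pth1r, Alpl, Col1a1 and Col1a2) and Phex was higher, and the summed signal was 18020 to 28078 in pRb-deficient and 43906 to 50499 in pRb-expressing cultures. It was 9287 to 14314 in pRb-deficient and 27468 to 29512 in pRb-expressing cultures without Col1a2, the brightest. Much of that was Col1a1, with 8615.5 to 13387.9 in pRb-deficient and 16759.1 to 20551.0 in pRb-expressing cultures. Ibsp, a defining marker, was near 0 in pRb-deficient cultures (9.2, 0.8 and 0.5). Of 12 smooth muscle and pericyte markers, the cells in which Notch3 is best known, 4 were higher (Cnn1, Cspg4, Tagln and Mcam), 2 lower (Smtn and Pdgfrb) and 5 did not pass, with a summed signal of 32628 to 38580 in pRb-deficient and 29149 to 32491 in pRb-expressing cultures, and Myh11 was under the floor on all arrays. Without Acta2, the brightest of them, the sum was 17422 to 20839 in pRb-deficient and 11066 to 12044 in pRb-expressing cultures. Cnn1 had signals of 2594.5, 2798.6 and 2092.4 in pRb-deficient cultures, against 16.1, 10.6 and 9.6, under the floor, in pRb-expressing cultures (adjusted p = 1.52e-06 from limma). Of 10 endothelial markers, Eng was higher, Flt1 lower and 6 did not pass. Their summed signal was 1708 to 1870 in pRb-deficient and 1332 to 1504 in pRb-expressing cultures, but without Eng it was 642 to 688 in pRb-deficient and 1036 to 1191 in pRb-expressing cultures, the opposite direction, and Tie1 and Vwf were under the floor on all arrays. Of 8 chondrocyte markers, 1 was higher and 4 lower (1843 to 2791 in pRb-deficient and 3394 to 4196 in pRb-expressing cultures), and of 8 hematopoietic markers, 2 were higher and 6 did not pass (1187 to 1426 in pRb-deficient and 1107 to 1322 in pRb-expressing cultures). The part of these markers' cells or states in the values of the Notch genes was not tested.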

How the data were processed

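Biotin-labeled RNA of 6 cultures was put on Affymetrix Mouse Genome 430 arrays. The deposited intensities are linear MAS5 signals that the authors scaled, without detection calls (Affymetrix Expression Console 1.1 per the submitters' processing notes), with a trimmed mean of 500.0 on each array (2% left out at each end) and medians of 107.7 to 119.5. Of 45101 probe sets, 64 controls and 6610 at or below 32 on all arrays were left out. Signals of the 38427 others were floored at 32, since 24.4% to 26.6% of each array lay there, put on the log2 scale and tested in limma 3.58.1 under R 4.3.3 (lmFit, then eBayes with trend = TRUE), two-sided, with Benjamini-Hochberg adjustment over all of them and a threshold of 0.05. The steps were tested on simulated data. The probe set that was brightest on average stood for its gene (16308 genes tested). Symbols came from the platform annotation (34945 probe sets with 1 symbol, 932 with several, 9160 with none) and chromosomes from RefSeq for 34741. Folds come from the fitted log2 values. Chromosome medians were taken over genes whose mean signal reached 200, and neighbours had to reach 100. Members and lists were chosen with earlier results of these data known. Named were all members, Rb1, Rbpj, Adam10 and up to 3 genes per pathway list with the lowest adjusted p past the threshold; other genes were named after their values were seen. The number of arrays limits the precision. Replicate numbers did not pair the arrays: deviations from the group means of same-numbered arrays correlated at 0.02, −0.03 and 0.06. Alternatives were other floors, filters, normalizations, probe sets and tests, chromosome medians removed, a replicate block and each array left out. Some listed genes are not reported here.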

Additional observations from a re-analysis of the deposited data

How the results depend on the processing

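Notch1 and Jag1 kept their direction and passed in all 19 alternative settings fitted with limma (log2 fold changes of −2.26 to −1.77 and −2.23 to −1.01), and Hes1 in all 18 that gave it a value (−1.69 to −1.13). Notch3 passed in 14 of 19 (−1.03 to −0.57), Jag2 in 7 of 19 and Notch4 in 1 of 17 (array quality weights, log2 fold change −0.79, adjusted p = 0.0324 from limma), while Notch2, Dll1, Hey1 and Heyl passed in none. A change of at least 2-fold left 5134 probe sets overall and 10 pathway genes. An exact rank-sum test of each probe set with Benjamini-Hochberg adjustment left 0 probe sets, 0 member probe sets, 0 member genes and 0 pathway genes, since with 3 against 3 arrays its smallest two-sided p is 0.1 and its smallest adjusted p here 0.208. The methods name a Wilcoxon statistic with permutations, a different procedure that was not run here. With the replicate number as a block, 12367 probe sets, 7 of the member probe sets, 4 member genes and 33 pathway genes passed. With each array left out, 10149 to 12960 probe sets, 6 to 7 member probe sets, 3 to 4 member genes and 29 to 35 pathway genes passed. Among the 10 member genes, none that was called turned its direction in these settings. Among the pathway genes called, Kat2a, a coactivator that was lower (log2 fold change −0.42, adjusted p = 0.0361 from limma), had a value of 0.10 with chromosome medians removed (adjusted p = 0.578). Signals near the floor limit Hey1, Notch4 and the dimmer probe sets of Jag2 and Heyl.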
